A study of Mus musculus with 9 samples.

Results

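Hepcidin and its partners in iron handling were followed by probe set in mouse liver under a high-fat diet. The rule named 10 genes and kept every probe set that the platform annotation pairs with one of these symbols and no other, which gave 20 of 41842 probe sets, for 9 of the 10 genes (of 17515 with a symbol of their own on the array). Of these, 18 entered the comparison, and the other 2 are control probe sets of Tfrc that the manufacturer places on the array. Trf, which encodes the plasma iron carrier transferrin, shared its only probe set with another symbol and gave no value.

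Liver RNA of c57Bl/6 mice was hybridised to Affymetrix GeneChip arrays, 4 from the control diet group and 5 from the high-fat diet (HFD) group, whose food held 21% fat and drew 42% of its calories from fat. All mice ate chow until the study. The composition of the control diet, the sex and age of the mice, the weeks of feeding and any batch are not in the labels, nor is it said whether arrays and animals correspond, so that the errors given measure how far the arrays differ, in part perhaps for technical reasons. Values are on the log2 scale relative to the median of that probe set over the authors' samples, called its baseline here, so that levels cannot be compared between genes and the liver identity of the samples cannot be checked by level. Over these 9 arrays alone the median was within 1e-05 of 0 in only 339 of 41842 probe sets, so that the baseline is not their own median. Among 14 probe sets of 8 hepatocyte markers, 0 passed limma's adjusted p of 0.05 and 2 had an unadjusted p under 0.05, and precision is limited by having 9 arrays. The share of all probe sets with an unadjusted p under 0.05 was not counted. Counts at that cut, here and below, thus cannot be set against the array as a whole. The 10 genes were chosen by function and selected on the difference between the diets on these same arrays, so that their differences, and any count of them past a threshold, are a description and no test of them.

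Hepcidin, the product of Hamp, is a peptide hormone made by hepatocytes that binds the iron exporter ferroportin (Slc40a1) and causes its breakdown, which holds iron inside macrophages and gut cells. Its transcription rises with iron through the ligand BMP6, made mainly by the sinusoidal endothelium of the liver, and through the surface proteins HFE, transferrin receptor 2 and hemojuvelin, which feed a SMAD signal, and it rises with inflammation through interleukin 6 and STAT3. Mice carry a neighbouring gene, Hamp2, whose product is not known to act on iron as that of Hamp does. Iron enters cells bound to transferrin through transferrin receptor 1 (Tfrc) and is stored in ferritin, and the messages of Tfrc and Fth1 are also controlled after transcription by iron regulatory proteins, which an array does not see in full.

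The stretches just before the start sites of the hepcidin genes are shown because each holds a match to a known control pattern. These stretches lie outside the transcripts, so that their likeness does not show what the probe sets may bind. They are from RefSeq (GRCm38.p6), both on the minus strand, at chr7:30944030-30944279 for Hamp and chr7:30924182-30924431 for Hamp2, and in RefSeq a single annotated gene, Usf2-ps1, lies between them. Capitals mark GGCGCC, the core of the BMP-responsive element, and TTCNNNGAA, the STAT pattern.
Hamp: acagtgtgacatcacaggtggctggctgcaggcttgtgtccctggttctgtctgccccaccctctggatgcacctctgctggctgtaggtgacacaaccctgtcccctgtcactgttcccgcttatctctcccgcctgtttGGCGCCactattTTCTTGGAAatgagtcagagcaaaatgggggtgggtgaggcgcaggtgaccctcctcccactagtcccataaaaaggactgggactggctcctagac
Hamp2: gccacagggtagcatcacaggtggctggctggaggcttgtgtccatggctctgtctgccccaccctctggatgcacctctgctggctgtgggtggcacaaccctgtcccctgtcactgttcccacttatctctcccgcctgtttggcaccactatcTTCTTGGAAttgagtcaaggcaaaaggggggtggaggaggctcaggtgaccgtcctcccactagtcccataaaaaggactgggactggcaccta
In a global alignment of these 250 bases, 227 of 253 columns were identical, 20 were mismatched and 6 were gapped. The Hamp stretch held GGCGCC at bases -109 to -104 and TTCTTGGAA at -97 to -89, counted back from the start site, and the Hamp2 stretch held TTCTTGGAA at -94 to -86 and no GGCGCC. Searched on both strands, GGCGCC was found in 9.59% and TTCNNNGAA in 7.02% of 32851 such stretches of the mouse genome, and the marked matches do not overlap each other. CACGTG, the E-box, was also searched and was in neither stretch (6.02% of all). Among the other genes of the rule, the same search found GGCGCC in a Tfrc stretch (-89 to -84). It also found CACGTG in that of Bmp6 (-127 to -122).

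The hormone gene Hamp had lower means in HFD in both of its probe sets. In 1419196_at the control arrays stood at 0.34, -0.08, 0.48 and 0.34 and the HFD arrays at 0.03, -0.03, -0.23, -1.16 and -0.10, in the order of replicates 1 to 4 and 1 to 5. HFD replicate 4 lay far below the rest, and control replicate 2 lay inside the HFD range, so that the groups overlapped. The means were 0.27 ± 0.24 (SD, n = 4) and -0.30 ± 0.49 (SD, n = 5), a difference of -0.57 ± 0.23 (HFD minus control, log2, standard error of the fit).

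The second Hamp probe set, 1419197_x_at, gave almost the same values array by array. The largest gap between the pair on any array was 0.08 and the mean gap was 0.05, and the difference between the diets was -0.58 ± 0.22. Without HFD replicate 4 the differences became -0.35 and -0.38. Hamp also varied more within groups than most probe sets, its SD in 1419196_at lying at percentile 87.4 of all probe sets in control and 95.8 in HFD.

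Hamp2 behaved differently in its probe sets, and only one of them separated the diets. In 1436643_x_at the control arrays stood at -1.33, -1.48, -1.20 and -1.10 and the HFD arrays at 0.12, 0.19, 0.13, -0.12 and 0.13. Every HFD array lay above every control array, with a gap far wider than the spread inside either group. The means were -1.28 ± 0.16 (SD, n = 4) and 0.09 ± 0.12 (SD, n = 5), and the difference of 1.37 ± 0.10 is a 2.58-fold higher signal in HFD. In 1456289_at, by contrast, all arrays lay between -0.13 and 0.13, the groups overlapped, and the difference was -0.07 ± 0.07, with SDs at percentile 16.1 of all probe sets in control and 6.00 in HFD.

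The name ending _x_at marks a probe set whose probes may also match other transcripts. For the neighbours Hamp and Hamp2 cross-binding is a possibility that was not tested, since probe and transcript sequences were not used here. The Hamp2 probe set 1436643_x_at was higher in HFD on every array, while both Hamp probe sets had lower means there. Across the 9 arrays the mean gap between 1436643_x_at and the Hamp probe set 1419196_at was 0.90 and that between the Hamp2 probe sets was 0.67. The flat Hamp2 probe set 1456289_at had mean gaps of 0.29 and 0.31 from the Hamp probe sets. It stayed near 0, so that these gaps mostly give how far Hamp itself lay from 0. The larger gaps likewise include the low control values of 1436643_x_at. None of the gaps therefore measures likeness or cross-binding. HFD replicate 4 was the lowest HFD array in 1436643_x_at as well as in both Hamp probe sets, at -0.12 where the other HFD arrays lay from 0.12 to 0.19. With the Hamp2 probe sets averaged the difference was 0.65.

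**Figure D1:**
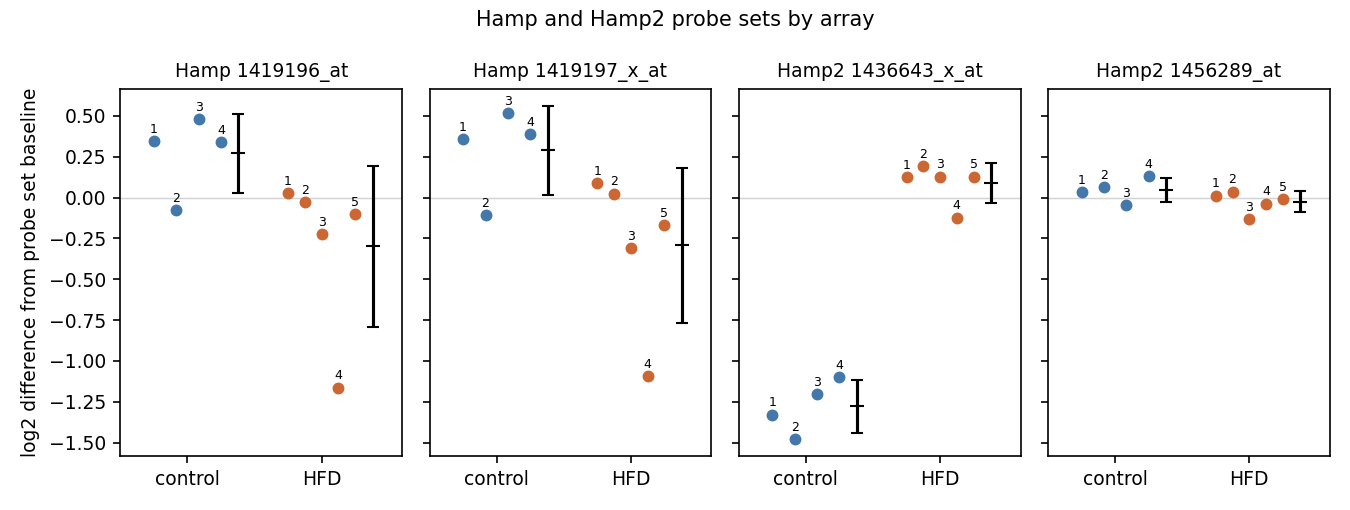
Values of the Hamp and Hamp2 probe sets on each array (y axis, log2 difference from the probe set's baseline; numbers are replicates, bars the mean ± SD of 4 control and 5 HFD arrays). The Hamp probe sets overlap between the diets and share a low HFD replicate 4 (-1.16 and -1.09), the Hamp2 probe set 1436643_x_at lies from -1.48 to -1.10 in control and from -0.12 to 0.19 in HFD, and 1456289_at stays near 0.

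The probe sets of other genes nearest to these profiles were sought by the mean absolute difference over the 9 arrays, each profile first centred on its own mean, among 30857 probe sets with 1 symbol. For Hamp2 1436643_x_at they were those of Brd3, which encodes a bromodomain protein (0.10), Necab1 (0.15) and Nbeal1 (0.15), with differences between the diets of 1.26, 1.26 and 1.20. For Hamp they were less close, namely Usp19, a ubiquitin protease (0.18), Ajm1 (0.18) and Ttc39c (0.18) for 1419196_at and Ttc39c (0.16), Tmx4 (0.18) and Zfp110 (0.19) for 1419197_x_at, where the Hamp profiles themselves lay 0.31 and 0.34 from their means. The flat Hamp2 probe set 1456289_at was nearest to those of Arhgef33 (0.02), P2rx2 (0.03) and Pdlim5 (0.03), which are as flat.

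Scara5, which encodes a scavenger receptor that takes up ferritin, was lower in HFD, mostly in one of its probe sets. In 1451204_at the control arrays stood at 0.75, 1.28, 2.95 and 1.64 and the HFD arrays at -1.04, -0.46, -0.95, -1.28 and 0.46. All HFD arrays lay below all controls, with control replicate 1 (0.75) and HFD replicate 5 (0.46) the closest. The difference was -2.31 ± 0.44, and the spread was among the widest on the array, with SDs of 0.94 in control (percentile 99.7) and 0.69 in HFD (percentile 98.6).

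In the other Scara5 probe set, 1431336_at, the controls stood at 0.22, 0.21, 0.32 and 0.01 and the HFD arrays at -0.04, -0.26, -0.13, -0.01 and 0.03. The direction was the same, the groups overlapped through control replicate 4 and HFD replicate 5, and the difference was only -0.27 ± 0.09. Nearest in profile to 1451204_at were Egfr, the epidermal growth factor receptor (mean gap 0.47), Il1r1, the interleukin 1 receptor (0.51), and Upp2, a uridine phosphorylase (0.51), with differences of -2.35, -1.69 and -1.89. These gaps are wide, given that the Scara5 profile lay on average 1.16 from its own mean. The 20 probe sets of 10 stellate cell and fibroblast markers held 1 that was higher (Lrat 1421345_at, 0.71) and none that was lower in limma, beside 2.04% and 1.23% of all probe sets. A further count at an unadjusted p under 0.05 gave 8 of the 20, of which 6 had lower values in HFD (in Reln, Ecm1, Dcn, Colec11 and Hgf, with differences from -0.64 to -0.28) and 2 higher ones (both Lrat). The marker mean overlapped between the diets, from -0.09 to 0.14 in control and from -0.33 to 0.23 in HFD, and the part of these cells in the Scara5 values was not tested.

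**Figure D2:**
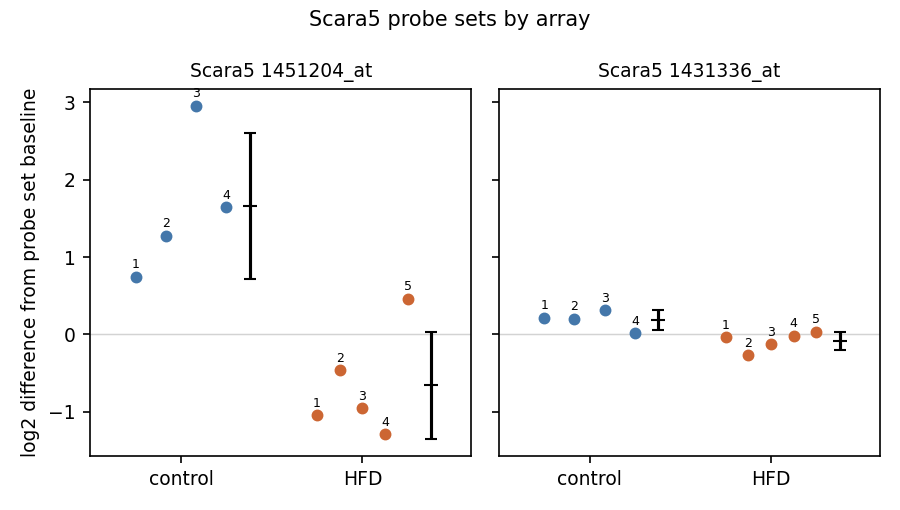
Values of both Scara5 probe sets on each array (y axis, log2 difference from baseline; numbers are replicates, bars the mean ± SD). In 1451204_at the controls span 0.75 to 2.95 and the HFD arrays -1.28 to 0.46, while 1431336_at spans -0.26 to 0.32 over all arrays.

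Ferroportin, the target of hepcidin, had lower means in HFD in both Slc40a1 probe sets. In 1448566_at the controls stood at 0.77, 0.44, 0.33 and 0.10 and the HFD arrays at -0.12, -0.10, -0.82, 0.38 and -1.91. HFD replicate 4 lay among the controls and HFD replicate 5 far below all other arrays. The difference was -0.92 ± 0.38, and -0.57 without HFD replicate 5. In 1417061_at the controls stood at 0.48, 0.28, 0.30 and 0.02 and the HFD arrays at -0.23, -0.04, -0.17, -0.02 and -0.60. Here the groups did not overlap, though control replicate 4 and HFD replicate 4 nearly met, and the difference was -0.48 ± 0.13.

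Bmp6, the iron-sensing ligand upstream of Hamp, also had a lower mean in HFD. Its probe set 1450759_at stood at 0.14, 0.63, -0.03 and 0.59 in control and at 0.01, -0.07, -0.38, -0.01 and -0.31 in HFD. Control replicates 2 and 4 were high and control replicate 3 lay within the HFD range, so that the groups overlapped. The difference was -0.48 ± 0.15, and the controls were the more variable group (SD 0.33, percentile 94.6, against 0.18, percentile 59.0).

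Markers of Kupffer cells and of the sinusoidal endothelium had lower means in HFD on the same arrays, and more of the former passed in limma. Of 16 probe sets of 11 Kupffer cell markers, the liver macrophages that recycle iron through ferroportin, 10 were lower (8 genes) and none higher, beside 1.23% and 2.04% of all probe sets. At an unadjusted p under 0.05 all 16 were lower. The mean of the 11 markers ran from 0.18 to 1.33 over the controls and from -1.22 to 0.09 over the HFD arrays. HFD replicate 5 was lowest and HFD replicate 4 highest of the HFD arrays in this mean, as in the Slc40a1 probe set 1448566_at. Of 16 probe sets of 10 sinusoidal endothelial markers 4 were lower (Fcgr2b and Stab1) and 12 did not pass. At an unadjusted p under 0.05, 13 of these 16 were lower and none higher. All HFD arrays lay below all controls in 9 of the endothelial and 7 of the Kupffer cell probe sets. The mean of the 10 endothelial markers ran from 0.11 to 0.64 in control and from -1.08 to 0.24 in HFD, with overlap. In whole liver, fewer cells of a type and less RNA per cell cannot be told apart, and the part of these cells in the Slc40a1 and Bmp6 values was not tested.

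**Figure D3:**
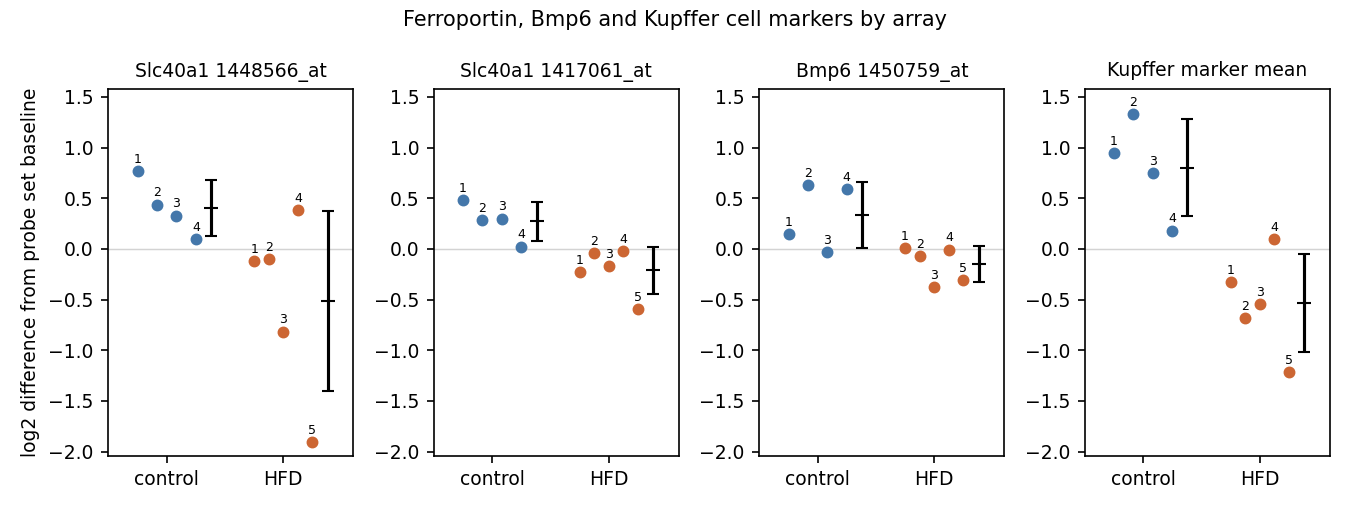
Values of the Slc40a1 and Bmp6 probe sets and the mean of 11 Kupffer cell markers on each array (y axis, log2 difference from baseline; numbers are replicates, bars the mean ± SD). HFD replicate 5 is the lowest array in both Slc40a1 probe sets (-1.91 and -0.60) and in the marker mean (-1.22), and HFD replicate 4 is the highest HFD array in each of them.

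The iron sensors Hfe and Tfr2, which act with hemojuvelin at the hepatocyte surface, differed little between the diets. Tfr2 had differences of -0.10 ± 0.11 in 1425381_a_at and -0.04 ± 0.10 in 1459994_x_at, and within HFD both probe sets split the arrays alike, with replicates 1 and 2 between 0.16 and 0.22 and replicates 3 to 5 between -0.16 and -0.06. Hfe had differences of -0.06 ± 0.11 in 1422645_at, where HFD replicate 5 stood alone at -0.43, and 0.02 ± 0.08 in 1450702_at. The HFD arrays in 1450702_at lay between -0.0033 and 0.06, an SD of 0.02 that is smaller than that of nearly all probe sets (percentile 0.172). Some of these small differences changed sign with the setting: without HFD replicate 5 that of 1422645_at was 0.02, without control replicate 1 that of 1450702_at was -0.02, and with array weights that of Tfr2 1459994_x_at was 0.01. Leaving out single arrays moved the differences of Tfr2 between -0.17 (without control replicate 4) and -0.03 (without control replicate 1) in 1425381_a_at and between -0.09 (without HFD replicate 2) and -0.00016 (without HFD replicate 4) in 1459994_x_at.

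Tfrc, the main route of transferrin iron, showed no common direction over its probe sets. The differences were 0.01 ± 0.10 in 1422966_a_at, -0.11 ± 0.09 in 1422967_a_at and 0.20 ± 0.25 in 1452661_at, and all overlapped between the diets. In 1452661_at the controls alone ran from -0.62 to 0.80, and its difference was -0.01 on leaving out control replicate 3 and reached 0.47 on leaving out control replicate 1. That of 1422967_a_at lay between -0.17 (without control replicate 4) and -0.06 (without HFD replicate 3). That of 1422966_a_at lay between -0.05 (without control replicate 4) and 0.10 (without control replicate 1). The control probe sets for Tfrc gave differences of 0.07 (toward the 3′ end) and 0.08 (middle), with HFD replicate 4 highest in the latter at 0.24. Among 7 probe sets of 5 erythroid markers, whose cells carry much Tfrc, 0 passed in limma and 1 had an unadjusted p under 0.05.

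Fth1, which encodes the heavy chain of ferritin, had probe sets that disagreed on single arrays. In 1448771_a_at the controls stood at -0.03, -0.0046, -0.06 and -0.03 and the HFD arrays at 0.09, 0.0066, 0.02, 0.22 and 0.0046, so that the groups did not overlap but the difference was only 0.10 ± 0.07. In 1427021_s_at the controls stood at 0.07, 0.05, -0.07 and -0.05 and the HFD arrays at 0.10, 0.09, -0.16, 0.27 and -0.89. The difference of -0.12 ± 0.20 turned to 0.08 without HFD replicate 5.

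HFD replicates 3 and 5 also stood apart in some of the array's own controls. For Actb, Gapdh and Pcx (pyruvate carboxylase), the manufacturer measures both ends of the transcript, and a raised 3′ over 5′ signal is a common sign of shortened RNA or cDNA. The 3′ minus 5′ value was 0.77, 0.41 and 0.79 in HFD replicate 3 and 1.12, 0.74 and 1.20 in HFD replicate 5, against -1.13 to 0.20 over the other 7 arrays. The 18S ribosomal RNA control did not show this order, with HFD replicate 3 at -0.06, HFD replicate 5 at 0.21 and control replicate 1 highest at 0.90, nor did the Tfrc control, measured at the 3′ end and the middle, where HFD replicates 3 and 5 stood at 0.03 and -0.20. Without these arrays together the Slc40a1 differences were -0.35 and -0.37, that of Bmp6 was -0.36, those of Fth1 were 0.14 and 0.15, and those of Hamp2 1436643_x_at and Scara5 1451204_at were 1.34 and -2.59. Of the HFD arrays, replicate 5 had the highest and replicate 4 the lowest 3′ minus 5′ value for Actb, Gapdh and Pcx (replicate 4 at -0.45, -0.27 and -1.13). In the Kupffer cell marker mean and both Slc40a1 probe sets, HFD replicate 5 was the lowest and HFD replicate 4 the highest HFD array. The part of RNA quality in the Kupffer cell marker, Slc40a1 and Fth1 values was not tested.

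**Figure D4:**
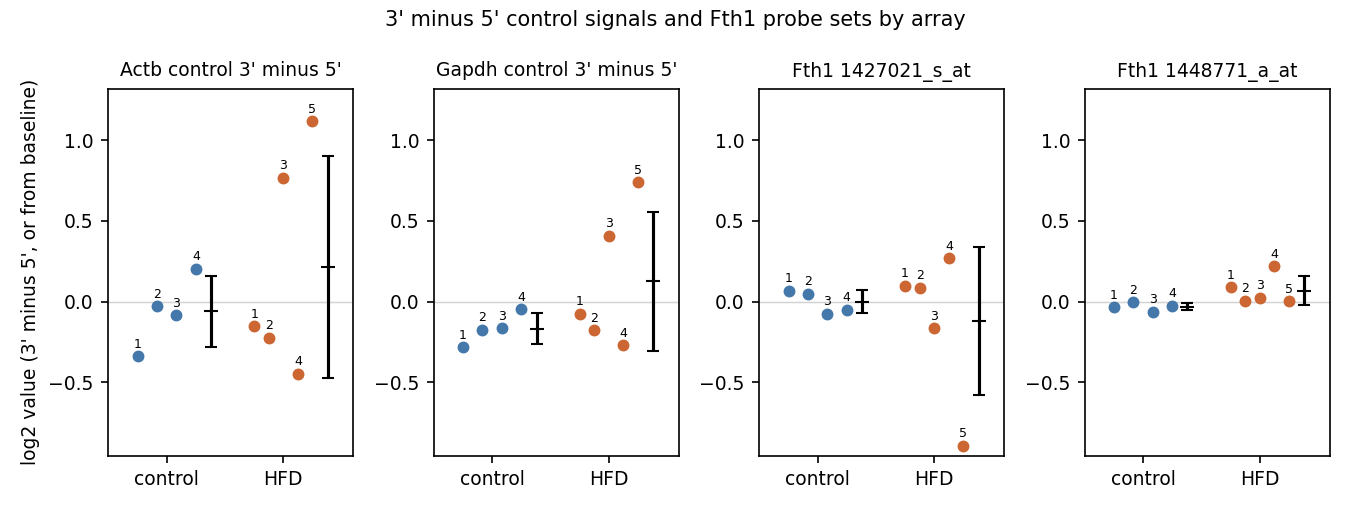
The 3′ minus 5′ value of the Actb and Gapdh control probe sets and the values of both Fth1 probe sets on each array (y axis, log2; numbers are replicates, bars the mean ± SD). HFD replicates 3 and 5 have the highest 3′ minus 5′ values, and HFD replicate 5 is lowest (-0.89) in the Fth1 probe set 1427021_s_at but at 0.0046 in 1448771_a_at.

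Over all 18 probe sets, 13 differences were negative, with a median of -0.10 against -0.01 over all probe sets tested. At limma's adjusted p of 0.05, 1 of the 18 was higher (Hamp2 1436643_x_at) and 1 was lower (Scara5 1451204_at), where 2.04% of all probe sets were higher and 1.23% lower, 3.26% in all. Every HFD array lay above every control in 2 of the 18, as in 4.50% of all probe sets, and below every control in 2, as in 3.50% of all. Since the genes were picked with this contrast in view, nothing is read from these counts. Leaving out control replicate 2, control replicate 4 or HFD replicate 3, each on its own, brought the count of 1 lower to 0.

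**Figure D5:**
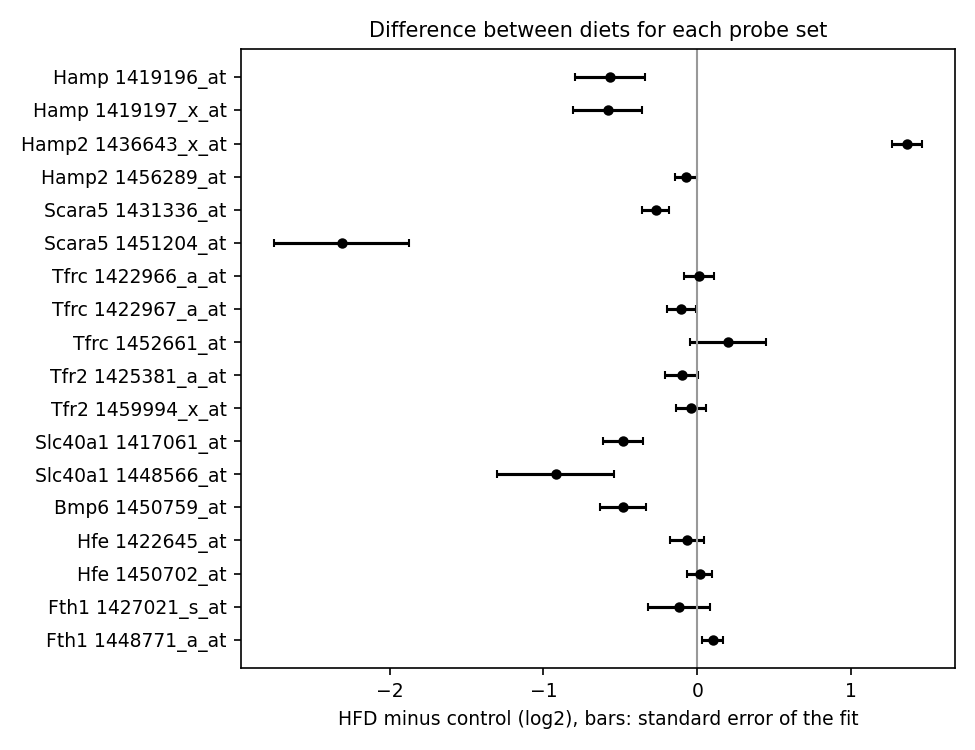
Difference between the diets for each of the 18 probe sets (x axis, HFD minus control on the log2 scale; points are differences and bars the standard error of the fit). Hamp2 1436643_x_at (1.37) and Scara5 1451204_at (-2.31) lie far from 0, while their second probe sets lie at -0.07 and -0.27.

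Other genes of iron handling were listed by function in 6 lists, with earlier results of these data known, and most did not pass. Their counts and adjusted p values are therefore given as a description. Of 197 probe sets of 99 measured genes, 7 were higher (3.55%) and 3 lower (1.52%) in HFD, beside 2.04% and 1.23% of all probe sets, and the median difference was -0.01, as over all probe sets. Leaving out HFD replicate 3 or either of control replicates 1 and 2 brought the 7 to 2, and leaving out HFD replicate 1 or either of control replicates 3 and 4 brought it to 3. The 3 lower became 10 with HFD replicate 4 left out, 7 with control replicate 4 left out and 6 with control replicate 1 or HFD replicate 5 left out.

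In the BMP and SMAD pathway that controls hepcidin, 1 of 48 probe sets rose and 1 fell (2.08% each), beside 2.04% and 1.23% of all probe sets. At an unadjusted p under 0.05 there were 12 of the 48, of which 6 were higher and 6 lower. Hjv, the hemojuvelin gene, whose product is the BMP co-receptor of hepatocytes, rose by 0.54 ± 0.09 (limma adjusted p = 0.00900) in 1454137_s_at, from -0.34 ± 0.16 (SD, n = 4) to 0.20 ± 0.07 (SD, n = 5), and the difference in its other probe set, 0.31 ± 0.13, was not past the threshold (limma adjusted p = 0.243). Smad1, a transducer of BMP signals, fell by 0.52 ± 0.09 (limma adjusted p = 0.0102) in 1448208_at, while its other probe sets had differences of -0.30 and -0.05 that did not pass. With the probe sets of Smad1 averaged the difference was -0.29 and not past the threshold. The median over this list was 0.04.

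In the list of interleukin 6 signalling and the acute phase, 1 of 35 probe sets rose (2.86%) and 2 fell (5.71%), beside 2.04% and 1.23% of all probe sets. At an unadjusted p under 0.05 there were 21 of the 35, of which 20 were lower and 1 higher. The median difference was -0.37 against -0.01 over all probe sets. Itih3, a plasma protease inhibitor chain, fell by 1.08 ± 0.16 and Apcs, which encodes serum amyloid P, fell by 1.02 ± 0.15 (limma adjusted p = 0.00631 and 0.00639). Orm3, an orosomucoid, rose by 1.35 ± 0.30 (limma adjusted p = 0.0367), a call lost on leaving out HFD replicate 3, HFD replicate 5 or any one of the controls. Of 7 probe sets of neutrophil markers, cells that enter inflamed tissue, 1 was lower (S100a9, -1.97) and none higher. S100a8 differed by -2.04 without passing, and the rest by only -0.24 to -0.08. The mean over the markers did not overlap between the groups (0.03 to 0.37 in control, -1.02 to -0.14 in HFD).

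Among genes of mitochondrial iron and iron-sulfur clusters 3 of 29 probe sets rose (10.3%) and none fell past the threshold, beside 2.04% and 1.23% of all probe sets. At an unadjusted p under 0.05 there were 9 of the 29, of which 6 were higher and 3 lower (Fdx1 -0.45, Hspa9 -0.22 and -0.34). Iscu, the scaffold on which clusters are built, rose by 0.47 ± 0.08 (limma adjusted p = 0.00968), Glrx5, a glutaredoxin that passes clusters on, by 0.39 ± 0.09 (limma adjusted p = 0.0372), and Cisd2, a membrane-bound iron-sulfur protein, by 0.38 ± 0.09 (limma adjusted p = 0.0428). The other Cisd2 probe sets had differences of -0.20 and -0.04, the average over its probe sets was 0.05 and not past the threshold, and its call was lost without any 1 of the 9 arrays. That of Glrx5 was lost without any 1 array other than HFD replicate 5, and that of Iscu was kept in all 20 alternatives.

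Of the 32 probe sets of haem synthesis, scavenging and breakdown 2 rose (6.25%) and none fell past the threshold, beside 2.04% and 1.23% of all probe sets. At an unadjusted p under 0.05 there were 12 of the 32, of which 7 were higher and 5 lower. The lower ones included both Alas1 probe sets (-1.27 and -0.92). Cpox, a late enzyme of haem synthesis, rose by 1.16 ± 0.25 (limma adjusted p = 0.0346) in 1422493_at and had differences of 0.34 and 0.36 in its other probe sets that did not pass. With the Cpox probe sets averaged the difference was 0.62 and not past the threshold. Flvcr2, which encodes a membrane transporter, rose by 0.37 ± 0.08 (limma adjusted p = 0.0419). The call of Cpox was lost on leaving out HFD replicate 1, HFD replicate 3 or any one of the controls, and that of Flvcr2 without any 1 array other than control replicate 3 or HFD replicate 2.

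Iron uptake outside transferrin and iron storage held no probe set past the threshold in limma. In the uptake and reduction list 6 of 25 probe sets had an unadjusted p under 0.05, led by Slc39a14, a hepatocyte importer of iron that is not bound to transferrin (-0.79 ± 0.20, limma adjusted p = 0.0604), and Timd2, a receptor for ferritin in mice (0.34 ± 0.10, limma adjusted p = 0.102). In the storage, oxidation and sensing list 2 of 28 had an unadjusted p under 0.05, and the lowest were those of Ncoa4, the adaptor that takes ferritin to lysosomes (-0.39 ± 0.11, limma adjusted p = 0.101), and Epas1, a hypoxia-inducible factor (-0.25 ± 0.11, limma adjusted p = 0.270). The other Epas1 probe set pointed the opposite way (0.31 ± 0.16). Some alternatives brought calls here. Slc39a14 passed after a further quantile normalization (-0.84), with the probe sets of smallest SD left out (-0.79), with array weights (-0.89), without control replicate 1 (-0.94) and without HFD replicate 5 (-0.91). Timd2 passed with array weights (0.37) and without HFD replicate 5 (0.40), and Ncoa4 without HFD replicate 4 (-0.46).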

How the data were processed

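Liver RNA was measured on 4 control and 5 HFD Affymetrix GeneChip arrays. The authors applied RMA and quantile normalization and then set the median of all samples as the zero point of every probe set, per the series' design text. Which samples entered that median is not given in the sources used here, and it is not the median of these 9 arrays. A shift shared by all arrays of a probe set leaves the differences between arrays as they are. The submitters' processing notes name RMA, with the version not given in the sources used here. The deposited values have both signs and were read as log2 differences from that baseline, since RMA returns log2 values, although no log base is stated.

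Of 41842 probe sets, 60 control probe sets were left out and 41782 tested. The annotation paired 32801 with 1 symbol, 862 with several and 8119 with none. HFD was compared with control per probe set with limma 3.58.1 in R 4.3.3 (lmFit, eBayes, two-sided, Benjamini-Hochberg over all probe sets, threshold 0.05, no covariate), tested on simulated data. Promoters were aligned with Biopython 1.88.

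The members and lists were chosen with earlier results of these data known. Named are all member probe sets, pathway genes past the threshold or else the 2 with the lowest p of a list, and the 3 nearest profiles. Marker lists covered hepatocytes, Kupffer, endothelial, stellate, erythroid and neutrophil cells and cholangiocytes (0 of 7 probe sets past in limma, 0 with an unadjusted p under 0.05). Each array was left out in turn, and other scalings, summaries and tests were tried.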

Additional observations from a re-analysis of the deposited data

Results flagged for a closer look

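Over 40 comparisons of the highest and lowest array of a group with the rest of that group, Dixon's criterion at 95% marked 3, where chance marks about 1 in 20. All 3 were HFD replicate 4. In Hamp 1419196_at it stood at -1.16 with the other HFD arrays from -0.23 to 0.03. In Hamp2 1436643_x_at it stood at -0.12 with the others from 0.12 to 0.19. In the control probe set for the middle of Tfrc it stood at 0.24 with the others from -0.03 to 0.05.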

How the results depend on the processing

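Of 252 differences of the 18 probe sets recomputed under other scalings, array weights, averaging or without arrays, 245 moved by less than the spread between arrays and 7 by more, all on averaging. That spread is the pooled SD of single arrays within the groups, which is a wide margin. A difference could change sign and still be among the 245, as Fth1 1427021_s_at did without HFD replicate 5 (-0.12 to 0.08). The count of 1 higher was 0 with probe sets ending in _x_at or _s_at left out and 1 with each array left out in turn. The count of 1 lower was 2 after a further quantile normalization, which added Slc40a1 1417061_at, 0 in the unmoderated test and at an adjusted p of 0.01, and 0 to 1 without single arrays. Over all probe sets, 851 were higher and 512 lower, which became 274 and 153 in the unmoderated test, 230 and 139 at an adjusted p of 0.01, and 359 to 870 and 187 to 611 without single arrays. With 1 probe set a gene 327 were lower, and with probe sets averaged 552 were higher. Both settings tested 1 profile a gene, fewer than 41782 in all, so that these counts cannot be set directly against 512 and 851. Without HFD replicates 3 and 5 together, added after seeing the data, 312 were lower. In the pathway lists the 7 higher and 3 lower became 2 and 1 in the unmoderated test, 11 and 13 with array weights, and 4 and 5 without HFD replicates 3 and 5. They ranged from 2 to 7 and from 3 to 10 without single arrays. Pathway probe sets lower numbered 12 after a further quantile normalization and 9 without the 25% of smallest SD, and 2 were higher at an adjusted p of 0.01. The averaged difference of Epas1 was 0.030. The causes were not tested. No paired analysis was possible because the labels give the arrays no shared replicate numbers. Levels were removed by the baseline, so that no signal over background could be used.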
